A study of Homo sapiens with 6 samples.

Results

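The MYC, MAX and MXD network is described here through 8 genes, chosen by their symbols: MYC, MAX, MXD1, MXD3, MXD4, MXI1, MNT and MGA. All 8 were among the 24305 gene symbols of the count table, and all 8 passed the filter on low counts that left 14452 genes for testing. RNA came from DU 145, an established human cell line of castration-resistant prostate cancer that the series design calls deficient in homologous recombination repair. One group of 3 libraries was from cells given talazoparib, a drug that blocks and traps PARP1 and PARP2 on DNA, for 48 h, and the other group of 3 carried the label DMOS at 48 h, read here as the solvent DMSO. The labels of these libraries do not give the dose, and nothing in them says that the replicates were separate cultures; p-values therefore weigh only the differences among these libraries, which may be technical. No groups other than these were compared, and all of the cells were of this 1 line.

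MYC is a transcription factor that binds DNA only as a pair with MAX, a small protein that also pairs with itself. MXD1, MXD3, MXD4, MXI1 and MNT compete for the same partner and bring the SIN3 co-repressor to the same DNA word, the E-box CACGTG, while MGA pairs with MAX inside a variant Polycomb complex called PRC1.6. The network is known for setting ribosome production, metabolism and growth against cell cycle exit, and gain of MYC is common in advanced prostate cancer.

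Total counts ran from 39123997 to 39585727 per library. The cells carried the keratin mRNAs of epithelium, with KRT8 at 583 and 557 CPM (counts scaled to library size) and KRT18 at 526 and 577 CPM in the control and talazoparib means. KRT8 (log2 fold change -0.07) and KRT18 (0.13) did not pass the edgeR test. In the trend-removed fit described below both were called lower, at -0.37 and -0.33. KRT19, another keratin of simple epithelium, rose from 41.8 ± 4.35 to 91.4 ± 8.01 CPM (log2 fold change 1.13 ± 0.10, edgeR adjusted p = 9.02e-06; 0.56 trend-removed, in the fit described below), whereas the epithelial cadherin CDH1 was at 1.37 and 0.798 CPM. Of the prostate luminal markers, TMPRSS2 was at 0 and 0.00845 CPM, and KLK2 and KLK3 were not analysed here. Summed leukocyte markers (3 of 4 in the table) were at 0.869 to 1.012 CPM in controls and 1.39 to 2.20 CPM with talazoparib, with PTPRC and CD3E at 0 and CD14 making up the rest. Summed endothelial markers (3 of 3) were at 0.126 to 0.435 and 0.354 to 0.608 CPM, and summed fibroblast markers (4 of 4) at 2.55 to 2.76 and 2.15 to 3.21 CPM, with DCN and LUM at 0. The epithelial sum (5 of 5 markers, most of it KRT8 and KRT18) was 1098 to 1303 and 1161 to 1265 CPM, and the part that any of these sums has in the members' changes was not tested.

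The E-box was looked up in RefSeq promoter windows of the members (GRCh38.p14, 300 bases each, from 250 before to 50 after a gene start), because it is the word that MYC, MXD and MNT pairs with MAX share. CACGTG reads the same on both strands and was the only word searched. MYC was not searched; of the other 7 members, MXD4 and MNT held the word, in 2 of 12 windows, against 7.26% of all 35116 windows. Among the MYC-activated targets described further on, 14 of 24 genes with a window held it (58.3%), against 8.77% of 27305 gene symbols. Of all 11447 tested genes with a window, 1412 held it. The list was chosen as MYC targets, so its share is a description and no test. The stretches around the words of both members, and of the mitochondrial chaperonin gene HSPD1 as a target for comparison, are given with the word in capitals, 5′ to 3′ on the minus strand that carries each gene.
MXD4: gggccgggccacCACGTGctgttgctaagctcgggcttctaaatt
MNT: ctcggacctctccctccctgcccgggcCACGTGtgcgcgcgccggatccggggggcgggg
HSPD1: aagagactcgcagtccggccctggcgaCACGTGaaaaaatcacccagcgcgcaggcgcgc
These lie at chr4:2262315-2262359, chr17:2401221-2401280 and chr2:197500330-197500389, and the word starts 238, 193 and 88 bases before the gene start. Of 1412 tested genes with the word in a window, 28.5% were higher and 32.3% lower with talazoparib, close to the 26.9% and 31.1% of all 11447 tested genes that had a window.

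With talazoparib, MXD4 mRNA rose 1.98-fold and MGA mRNA fell to 0.326 of the control level, the largest changes among the members. MYC itself fell to 0.860 of control, MXD1 to 0.568 and MXI1 to 0.648, MXD3 rose 1.25-fold, and MAX and MNT did not pass the test. By the edgeR quasi-likelihood test, adjusted by Benjamini-Hochberg over all genes at 0.05, 2 of 8 members were higher and 4 lower. The background was wide: 56.7% of all genes tested were called, 26.8% higher and 29.9% lower. The groups did not overlap for 7 of 8 members, against 64.4% of all genes tested. With 8 genes these shares are a description of the members and are not set apart from the background by a test. The members' median log2 fold change was -0.13, against 0.002 for all genes tested. Levels are relative to the total RNA of a library, and a change in fewer cells and a smaller change in every cell cannot be told apart.

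**Figure D1:**
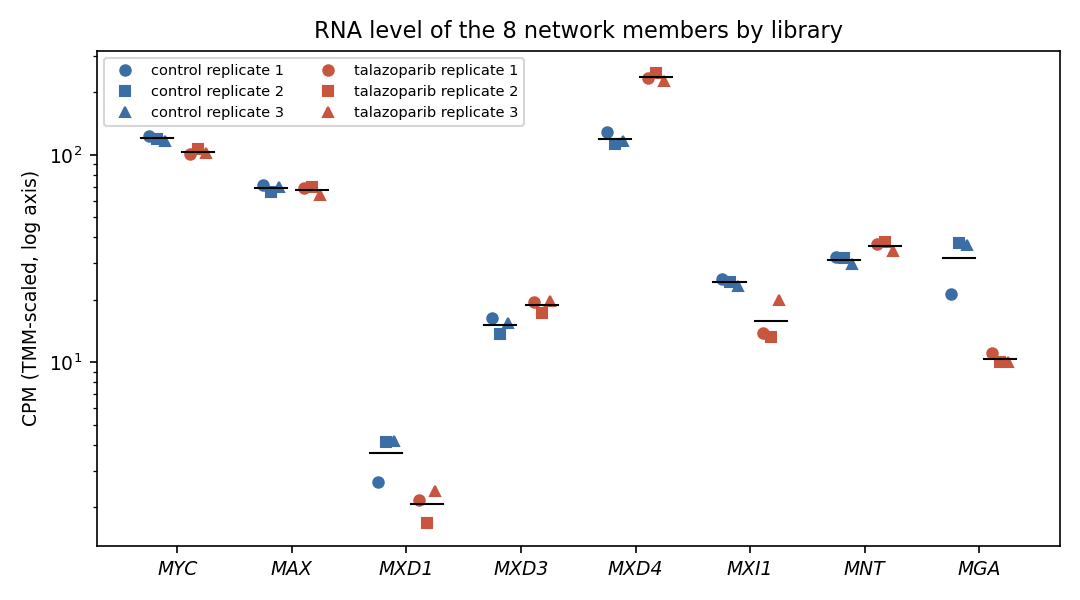
CPM of each member in each library on a log axis, blue for control and red for talazoparib, with the replicate number by symbol and the group mean as a bar. MXD4 lies between 227 and 247 CPM in the 3 talazoparib libraries against 112 to 129 CPM in the controls, and the control replicate 1 point of MGA and of MXD1 lies below the other controls.

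MYC (ENSG00000136997.17, chromosome 8, 127735434 to 127741434 on the plus strand in GENCODE 29, GRCh38) had 124, 119.7 and 117 CPM in control replicates 1 to 3 and 101, 107 and 102 CPM in talazoparib replicates 1 to 3. Every talazoparib library was below every control library, by a small margin. The means were 120.1 ± 3.51 and 103 ± 2.97 CPM (SD, n = 3 each), a log2 fold change of -0.22 ± 0.07 (SE; edgeR adjusted p = 0.0200). Without talazoparib replicate 1 the change was -0.20 and did not pass (edgeR adjusted p = 0.0989), the highest among its 19 alternatives, whose adjusted p began at 7.08e-05. The change was larger, -0.39 ± 0.05 (edgeR adjusted p = 7.08e-05), in the fit that removes each library's trend over mRNA GC content and gene length, described below.

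MAX (ENSG00000125952.18, chromosome 14, 65006174 to 65102695, minus strand), the shared partner, had 71.8, 66.3 and 70.2 CPM in controls and 69.3, 69.6 and 64.2 CPM with talazoparib. The groups overlapped. The log2 fold change was -0.04 ± 0.08 (edgeR adjusted p = 0.706), and it was 0.0014 without talazoparib replicate 3. In the trend-removed fit MAX was called lower at -0.16 ± 0.05 (edgeR adjusted p = 0.0252), within a range of 0.0252 to 0.990 over 19 alternatives.

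MXD4 (ENSG00000123933.16, chromosome 4, 2247432 to 2262294, minus strand), an MXD repressor found mostly in cells that leave the cycle or differentiate, was the member that rose most. Its level was 129, 112 and 116 CPM in controls and 234, 247 and 227 CPM with talazoparib. The lowest talazoparib library stood well above the highest control. The means of 119.2 ± 8.93 and 236 ± 10.3 CPM (SD, n = 3 each) gave a log2 fold change of 0.99 ± 0.08 (edgeR adjusted p = 6.55e-06). Trend-removed, the rise was 0.58 ± 0.04, or 1.49-fold (edgeR adjusted p = 3.51e-06), and MXD4 passed in 19 of 19 alternatives, with log2 fold changes of 0.56 to 1.02.

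MXD3 (ENSG00000213347.10, chromosome 5, 177301461 to 177312757, minus strand), the MXD protein that appears in S phase, had 16.3, 13.7 and 15.4 CPM in controls and 19.6, 17.3 and 19.8 CPM with talazoparib. The lowest talazoparib library was just above the highest control. Its log2 fold change of 0.32 ± 0.12 passed (edgeR adjusted p = 0.0364) and was the least firm of the calls: it passed in 5 of 19 alternatives (adjusted p of 0.0218 to 0.982). The call ended without control replicate 2 (0.22) or 3 (0.30), without talazoparib replicate 1 (0.29) or 3 (0.28), and under total count scaling (0.25), and trend-removed the value was -0.0033. In GENCODE 29, 22.5% of the MXD3 exon bases are also exonic in PRELID1, on the opposite strand, and 18.0% in RAB24, on the same strand. PRELID1 had 9531 to 13279 counts per library against 562 to 780 for MXD3. Without a stated strand setting, reads of PRELID1 in the shared bases cannot be told apart from those of MXD3. For RAB24 a strand setting would not separate them, and how shared reads were counted is not given in the sources used here.

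MXD1 and MXI1 encode MXD repressors too, and both were lower. MXD1 (ENSG00000059728.10, chromosome 2, 69897688 to 69942945, plus strand) was the scarcest member, with 63 to 170 counts per library. It stood at 2.64, 4.14 and 4.18 CPM in controls and 2.16, 1.67 and 2.38 CPM with talazoparib. Control replicate 1 came close to talazoparib replicate 3. The log2 fold change was -0.82 ± 0.23 (edgeR adjusted p = 0.00918), -1.04 without control replicate 1, and -0.74 without control replicate 3, where it did not pass (edgeR adjusted p = 0.0542). It did not pass trend-removed (-0.26 ± 0.19, edgeR adjusted p = 0.287), and its adjusted p ran from 0.00226 to 0.568 over 19 alternatives.

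MXI1 (ENSG00000119950.20, chromosome 10, 110207605 to 110287365, plus strand) had 25.2, 24.2 and 23.4 CPM in controls and 13.8, 13.3 and 20.1 CPM with talazoparib. Talazoparib replicate 3 lay between the other 2 talazoparib libraries and the controls. The log2 fold change was -0.63 ± 0.15 (edgeR adjusted p = 0.00359), and -0.84 without that library. Trend-removed it was -0.26 ± 0.12 and did not pass (edgeR adjusted p = 0.112); in that fit it passed without talazoparib replicate 3 (-0.42, edgeR adjusted p = 0.00597). Over 19 alternatives its adjusted p ran from 0.000114 to 0.357.

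MNT (ENSG00000070444.14, chromosome 17, 2384060 to 2401118, minus strand), the MAX-binding repressor present in most cells, had 32.3, 31.7 and 29.6 CPM in controls and 37.0, 37.9 and 34.3 CPM with talazoparib. The groups did not overlap, yet the log2 fold change of 0.22 ± 0.09 missed the threshold (edgeR adjusted p = 0.0523). It was past the threshold with DESeq2 (0.23, adjusted p = 0.0494) and without talazoparib replicate 3 (0.27, edgeR adjusted p = 0.0306), in a range of 0.0306 to 0.329 over 19 alternatives.

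MGA (ENSG00000174197.16, chromosome 15, 41621224 to 41773081, plus strand), a very large protein with a T-box DNA-binding domain beside its MAX-binding one, fell most. Its level was 21.4, 37.4 and 36.9 CPM in controls and 11.1, 10.05 and 10.07 CPM with talazoparib. Control replicate 1, with 842 counts against 1536 and 1501, was lower than the other controls by 0.80 in log2 CPM and still above every talazoparib library. The log2 fold change was -1.62 ± 0.19 (edgeR adjusted p = 4.68e-05) and -1.88 ± 0.10 without control replicate 1. Trend-removed it was -0.70 ± 0.12, a 1.62-fold fall in place of 3.07-fold (edgeR adjusted p = 0.00102). MGA passed in 19 of 19 alternatives, with log2 fold changes of -1.88 to -0.62.

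The members' changes moved with the composition of their mRNAs. MGA, MXD1 and MXI1, which fell by the most, have the lowest GC contents (42.0%, 42.7% and 43.7% in GENCODE 29 transcripts), and MXD4, which rose most, the highest (64.0%). The same trend ran through all genes tested. In the decile of GC content that holds MGA, MXD1 and MXI1 (41.5% to 43.9%), the median log2 fold change was -0.53, with 61.7% of 1372 genes lower and 4.15% higher. In the decile that holds MXD4 (62.4% to 75.3%) the median was 0.43, with 66.2% of 1372 genes higher. MGA also has the longest deposited gene length, 12632 nt, and in its length decile (9495 to 42081 nt) the median was -0.64. MYC lay below its own GC decile, whose median was 0.24 with 41.4% of genes higher and 7.88% lower. MNT, with 61.4% GC and 9179 nt, belongs to a GC decile with a median of 0.38 and a length decile with a median of -0.46.

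**Figure D2:**
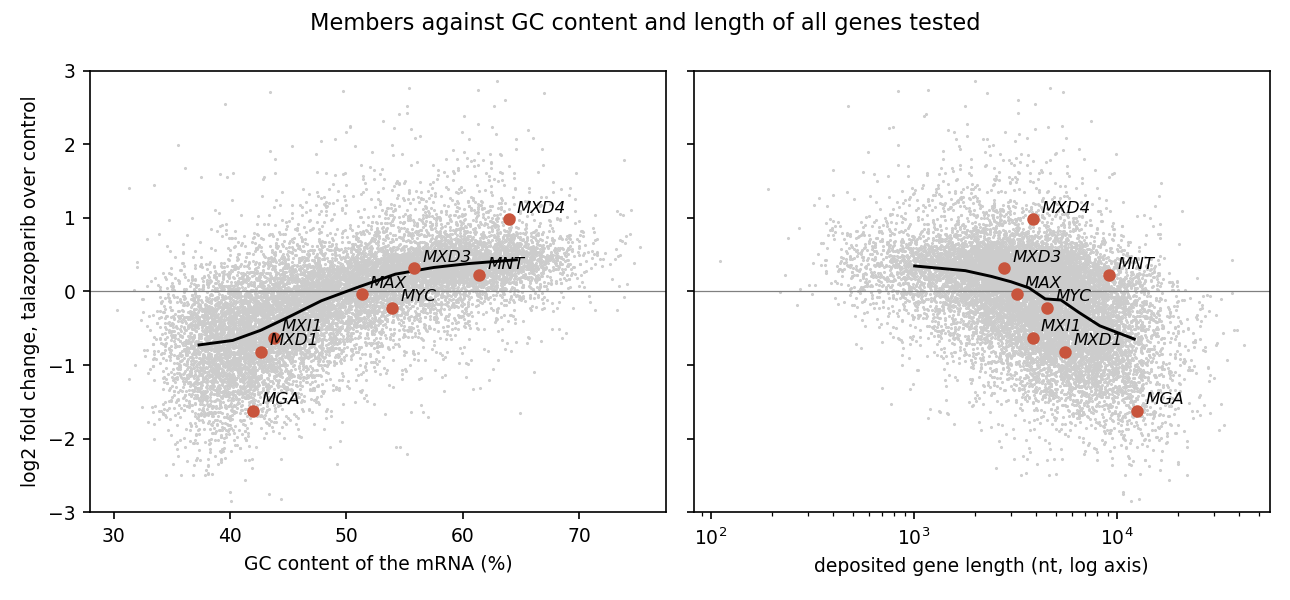
Log2 fold change against the GC content of the mRNA (left) and the deposited gene length on a log axis (right), with 13709 tested genes in grey, the median per decile as a black line and the members in red; 9 genes beyond 3 in either direction are not drawn. Against the medians of their own deciles, MXD4 and MXD3 lie above in both panels, and MGA, MYC, MXD1, MXI1 and MAX below. MNT lies below for GC content and above for length.

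With that trend removed, 44.2% of 13718 genes were called, 22% higher and 22.2% lower. MXD4 was the 1 member called higher, and MYC, MAX and MGA were the 3 called lower. The part that this composition trend played in the changes of MXD1, MXI1 and MXD3, whose calls ended in this fit, was not tested beyond it. A technical trend and a response of the cells that shares it cannot be told apart in this design.

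**Figure D3:**
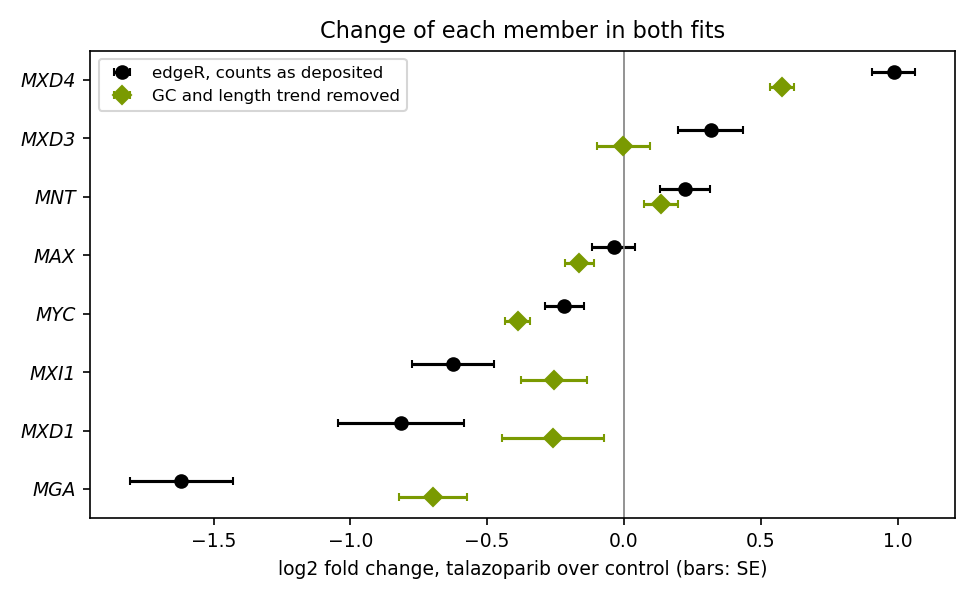
Log2 fold change of each member (bars: SE) with the counts as deposited (black) and with the GC and length trend removed (green). MXD4 and MGA move toward 0 and stay on their sides at 0.58 and -0.70, MYC goes from -0.22 to -0.39, and MXD3 goes from 0.32 to -0.0033.

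Levels of different genes were compared per length, as FPKM, the length-scaled and depth-scaled values that the authors deposited. In controls the order was MXD4 (31.5 ± 1.501 FPKM), MYC (27.3 ± 0.580), MAX (22.2 ± 0.434), MXI1 (6.48 ± 0.180), MXD3 (5.57 ± 0.361), MNT (3.48 ± 0.153), MGA (2.60 ± 0.795) and MXD1 (0.678 ± 0.177; SD, n = 3). The ranges of all 7 pairs of neighbours were apart. With talazoparib the order was MXD4 (59.4 ± 1.31 FPKM), MYC (22.3 ± 0.423), MAX (20.6 ± 0.495), MXD3 (6.604 ± 0.621), MXI1 (3.9995 ± 1.06), MNT (3.86 ± 0.114), MGA (0.802 ± 0.0459) and MXD1 (0.365 ± 0.0716). There 6 of 7 pairs were apart, and MXI1 and MNT overlapped.

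This order rests on the gene lengths behind the FPKM. MYC is given 4518 nt there against 3001 exon bases in GENCODE 29, and MXD4 3871 nt against 7058. With GENCODE exon bases in place of those lengths, an alternative chosen after the data were seen, MYC led in controls at 41.0 ± 0.874 FPKM against 17.3 ± 0.823 for MXD4. With talazoparib both then stood at one level, MYC at 33.5 ± 0.637 and MXD4 at 32.6 ± 0.721, with overlapping ranges. The rank of MYC against MXD4 within a group is therefore not fixed by these files. Their changes between the groups use no length in the fit of the counts as deposited, whereas the trend-removed fit uses the deposited lengths.

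MYC took a smaller share of the mRNA for MAX partners with talazoparib. Of the summed FPKM of the 7 partners, MYC held 34.7%, 35.9% and 34.8% in controls and 22.7%, 23.1% and 22.9% with talazoparib. The groups lay far apart against their spread: the mean fell by 12.2 percentage points, from 35.1 ± 0.652% to 22.9 ± 0.183% (SD, n = 3 each). The exact two-sided permutation p was 0.10, the smallest that 3 against 3 libraries can give. MXD4 went from 40.6 ± 1.56% to 61.1 ± 1.42% of the sum, MXI1 from 8.34 ± 0.183% to 4.11 ± 1.05% and MGA from 3.36 ± 1.05% to 0.824 ± 0.0560%. The sum itself was 77.6 ± 0.929 FPKM in controls and 97.3 ± 1.25 FPKM with talazoparib, against 22.2 ± 0.434 and 20.6 ± 0.495 FPKM for MAX. The ratio of MXD4 to MYC FPKM was 1.09 to 1.22 in controls and 2.60 to 2.70 with talazoparib. Per GENCODE exon bases the MYC share was 56.3% and 43.0%, a fall by 13.3 percentage points. All of these shares hold the GC and length trend, which was not removed here, and its part in them was not tested.

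**Figure D4:**
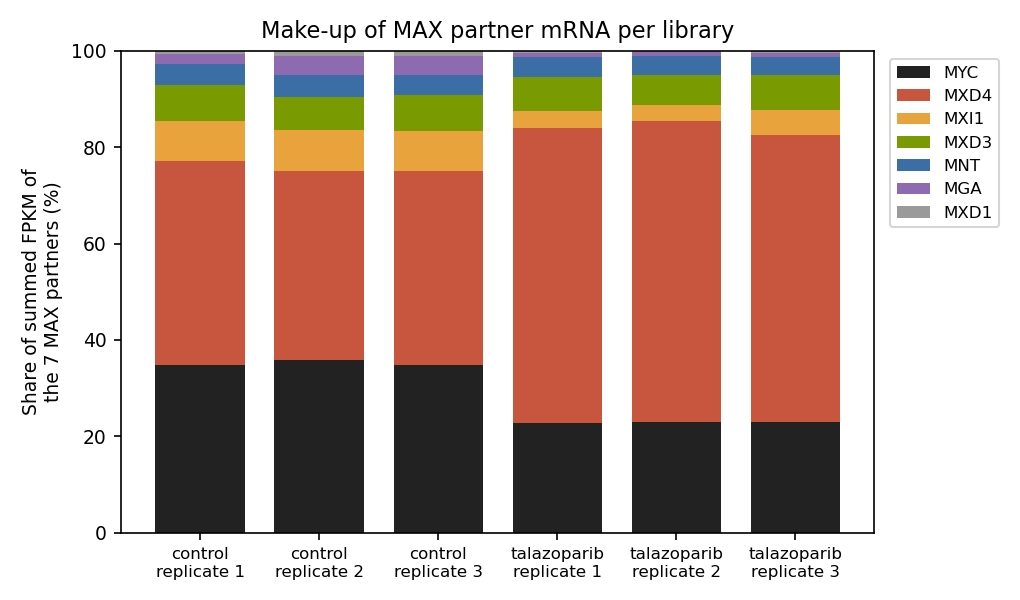
Share of each MAX partner in the summed FPKM of the 7 partners, as 1 stacked bar for each library. MYC (black) takes 34.7% to 35.9% in controls and 22.7% to 23.1% with talazoparib, and MXD4 (red) 39.2% to 42.3% and 59.6% to 62.4%.

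Around the 8 members, genes of the network's other parts were read from lists, with counts set beside the 26.8% higher and 29.9% lower of all genes tested and their median log2 fold change of 0.002. Of the MYC paralogs and the MLX arm, a parallel set of factors that sense glucose, MLXIPL rose from 3.48 ± 0.499 to 5.23 ± 0.292 CPM (log2 fold change 0.58 ± 0.17, edgeR adjusted p = 0.0109), a call that ended without control replicate 3 and trend-removed (0.18). MLX (0.15), MLXIP (0.04) and MYCL (-0.03) did not pass, and MYCN was not analysed here. Trend-removed, none of the 4 passed, with MLX at -0.04 and MLXIP at -0.0073. MLXIP was also below 0 under total count scaling (-0.036) and without control replicate 1 or 2 or talazoparib replicate 2, and MYCL was above 0 without talazoparib replicate 3 (0.10).

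Genes for MYC protein turnover were mostly lower: 7 of 10 fell and 1 rose, with a median of -0.64. SKP2, a ubiquitin ligase subunit that targets MYC, fell from 99.6 ± 5.08 to 54.8 ± 5.46 CPM (-0.86 ± 0.09), and USP28, a deubiquitinase that stabilises MYC, from 45.8 ± 5.92 to 23.7 ± 2.42 CPM (-0.95 ± 0.12). GSK3B, a kinase that marks MYC for degradation (-0.74), and PPP2R5A, a subunit of the phosphatase PP2A (-1.06), fell as well. The list therefore holds falls of genes that stabilise MYC and of genes that remove it. Its median gene had 46.3% GC and 6759 nt, and trend-removed 5 were lower and 1 higher. In that fit SKP2 was at -0.18, USP28 at -0.46 and PPP2R5A at -0.91, all still called, and GSK3B at -0.0061 did not pass.

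Of 13 MYC co-activators, 5 rose, 5 fell and 3 did not pass (median -0.08). The acetyltransferase EP300 fell from 92.5 ± 12.7 to 50.5 ± 6.72 CPM (-0.87 ± 0.12), and the scaffold TRRAP (-0.69), the remodeller EP400 (-0.61) and the actin-related subunit ACTL6A (-0.47) fell. Trend-removed none was higher and 4 were lower, TRRAP at -0.45, EP400 at -0.46 and EP300 at -0.72 among them, while ACTL6A at -0.13 did not pass (edgeR adjusted p = 0.152).

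Of 14 SIN3 and NCOR co-repressor genes, the partners of the MXD proteins, 8 fell and 3 rose (median -0.27). The nuclear receptor co-repressor NCOR1 fell from 53.0 ± 9.04 to 24.2 ± 1.95 CPM (-1.13 ± 0.13), the SIN3 subunits ARID4B (-1.27) and SUDS3 (-0.77) fell, and so did the deacetylase HDAC2 (-0.87). Trend-removed, 5 were lower and 3 higher, and NCOR1 (-0.43), SUDS3 (-0.28) and ARID4B (-0.48) stayed lower while HDAC2 at 0.08 did not pass. The 3 rises were all lost without control replicate 2 or without control replicate 3, and the count was 1 without talazoparib replicate 1.

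Of the 9 PRC1.6 partners of MGA, 5 fell and 2 rose (median -0.38). The heterochromatin protein gene CBX3 fell from 106 ± 11.5 to 58.5 ± 10.8 CPM (-0.86 ± 0.13), the DNA-binding subunit E2F6 (-0.58) and RYBP (-0.75) fell, and RING1, a ubiquitin ligase of the complex, rose from 78.2 ± 4.97 to 109 ± 7.86 CPM (0.48 ± 0.08). Trend-removed, 2 were lower and 2 higher: CBX3 stayed lower at -0.33, and E2F6 (-0.18, edgeR adjusted p = 0.0806), RYBP (-0.16, edgeR adjusted p = 0.223) and RING1 (-0.05) did not pass. The list's median GC content was 42.0%.

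Target genes were counted in both directions. Of 29 MYC-activated targets tested, 12 fell, 5 rose and 12 did not pass (median -0.12). The nucleolar genes NCL, which fell from 686 ± 53.1 to 416 ± 25.9 CPM (-0.72 ± 0.08), NOP58 (-1.37 ± 0.16) and WDR43 (-1.17 ± 0.11), and the chaperonin HSPD1 (-0.70 ± 0.08), had the smallest adjusted p, from 1.25e-05 to 3.37e-05 by edgeR. Trend-removed the list had 16 lower and 3 higher (median -0.25), with NCL at -0.58, NOP58 at -0.96, WDR43 at -0.61 and HSPD1 at -0.44. Between the 2 fits BOP1 went from higher (0.28) to lower (-0.22), and TFRC from lower (-0.45) to higher (0.29). In the counts as deposited, the count of 5 rises became 0 without control replicate 2 or without control replicate 3, 2 without talazoparib replicate 1 and 3 without talazoparib replicate 2, while 12 or 13 fell whichever library was left out. Of the 14 targets with CACGTG in a window 5 fell and 3 rose, and of the 9 tested with a window that lacked it 4 fell and 1 rose.

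Of 13 MYC-repressed targets, 7 rose, 3 fell and 3 did not pass (median 0.31). The cell cycle inhibitor CDKN1A rose from 30.6 ± 0.781 to 46.9 ± 2.75 CPM (0.61 ± 0.09) and the stress factor DDIT3 from 6.28 ± 0.902 to 11.1 ± 1.42 CPM (0.82 ± 0.16). CDKN2B, another inhibitor (-0.64), and THBS1, a matrix protein (-0.58), fell. Many of these genes also answer to other signals, such as p53 and the stress response, so the list does not isolate MYC. Trend-removed, 4 rose and 2 fell (median 0.04), with CDKN1A at 0.24, DDIT3 at 0.61 and CDKN2B at -0.31 still called and THBS1 at -0.10 not past the test.

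**Figure D5:**
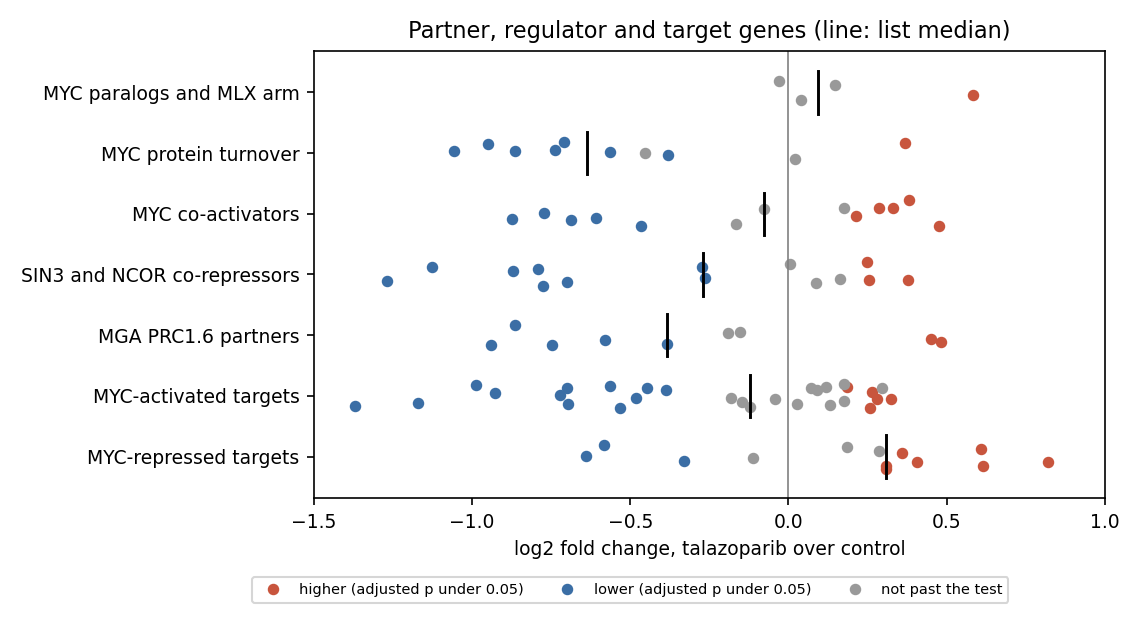
Log2 fold change of each tested gene by list, red for higher, blue for lower and grey for not past edgeR's test at 0.05, with the list median as a black line and a random vertical spread. The median is -0.64 for MYC protein turnover, -0.12 for MYC-activated targets and 0.31 for MYC-repressed targets.

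Among 10108 genes with a mean of at least 5 CPM, ZNF488 (Pearson r = 0.994) and EBNA1BP2 (0.991) were among the 3 genes whose log2 CPM over the 6 libraries followed MYC most closely. The points share 2 groups and their libraries, so a difference between the groups carries much of each r, and 558 genes had an r over 0.9. ZNF488, a zinc finger gene, went from 36.0 ± 1.598 to 26.8 ± 1.74 CPM, and EBNA1BP2, a nucleolar ribosome assembly factor, from 274 ± 20.0 to 176 ± 9.06 CPM (SD, n = 3 each).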

How the data were processed

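Libraries were made from TRIzol RNA with the VAHTS Universal V6 kit, per the labels' protocols. Trimmomatic, HISAT2, HTSeq, Cufflinks and the GRCh38 build come from the submitters' processing notes, with versions, annotation and strand use not given in the sources used here. As deposited by the authors, the files hold raw counts for 24305 gene symbols and FPKM for the same genes. Each deposited FPKM equalled the count divided by a length and the column total, and these lengths were whole within 0.01 nt for 99.95% of 21065 genes.

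The counts went into edgeR 4.0.16 under R 4.3.3 (filterByExpr with a minimum count of 10, TMM, robust quasi-likelihood test, group as the only term), adjusted by Benjamini-Hochberg over all 14452 genes at 0.05. CPM are scaled by TMM, except for untested markers and the marker sums, which are per total count. The SE of a log2 fold change is its size divided by the square root of F. The trend-removed fit adds an offset from natural splines (5 degrees of freedom) of each library's log2 CPM deviation over GC content and log2 length, for the 94.9% of tested genes with both, all 8 members included. Alternatives were DESeq2 1.42.0, limma-voom (limma 3.58.1), total count scaling, no filter, the trend removal, a replicate block and leaving out each library; leaving libraries out of the trend-removed fit and the GENCODE lengths were added after seeing the data. The scripts were tested on simulated data.

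The members and lists were chosen with earlier results of these data known. Named were all members, every gene of lists of at most 5, up to 4 genes of each other list with the smallest adjusted p, and the 3 genes most like MYC. Coordinates are from GENCODE 29 and promoter sequences from RefSeq (GRCh38.p14). EIF4A1, KLK2, KLK3 and MYCN were not analysed here, and some marker genes and 1 of the genes most like MYC are not reported here.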

Additional observations from a re-analysis of the deposited data

How the results depend on the processing

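MXD4 and MGA kept their direction and passed the test in all alternatives run. The fall of the MYC share kept its direction with raw counts, without MGA in the sum, per GENCODE exon bases and without each library. The trend removal was not applied to the share. Counts over 8 members and short lists move by single genes. The count of members higher was 1 under total count scaling, with the trend removed, with the replicate block and with both together, and 1 to 2 when 1 library was left out; DESeq2 gave 3 (2 in the report). The count lower was 2 with the block and trend removal together and 2 to 4 without 1 library. Over all genes, leaving out 1 library gave 2622 to 3973 higher and 3731 to 4576 lower, and the block with trend removal 2566 and 2573. With total count scaling the split was 3374 higher and 4665 lower, with a median shift of -0.07 in log2.

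With the trend removed, rises numbered 0 for the MLX arm, 0 for co-activators, 3 for activated and 4 for repressed targets, and falls 5 for SIN3 and NCOR and 2 for PRC1.6 genes. With the block as well, rises numbered 0, 0, 3 and 2, falls were 4 for turnover, 4 for SIN3 and NCOR and 2 for PRC1.6 genes, and 1 PRC1.6 gene rose. Without 1 library, rises ran from 0 to 1 (MLX arm), 0 to 3 (SIN3 and NCOR) and 0 to 7 (activated targets).

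MXD3 was at -0.0033 trend-removed and -0.0063 with the block as well, and at -0.059 to 0.081 trend-removed without 1 library (-0.055 without control replicate 2, -0.029 without talazoparib replicate 1, -0.059 without talazoparib replicate 3). Without 1 library MAX ran from -0.103 to 0.0014 (without talazoparib replicate 3), MYCL from -0.117 to 0.102 (without talazoparib replicate 3) and MLXIP from -0.0093 to 0.106. In the trend-removed fits without and with the block, MLX was at -0.0444 and -0.0445, MLXIP at -0.00729 and -0.00734, HDAC2 at 0.0764 and 0.0787 and RING1 at -0.0489 and -0.0494. MLXIP was at -0.036 under total count scaling, and below 0 without control replicate 1, control replicate 2 or talazoparib replicate 2. Beyond the trend offset itself, the cause was not tested.

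The replicate numbers did not pair the libraries: deviations of same-numbered libraries correlated at -0.09, -0.17 and 0.004, and no library correlated best with its own number. The replicate block left 3 members lower and 1 higher, and MYC (edgeR adjusted p = 0.0726) and MXD3 (0.0711) did not pass in it. Leaving out a library leaves a group of 2.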
